A study of Rattus norvegicus with 145 samples.

Results

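In rats given acetamide by gavage, 10 genes of the growth hormone and IGF axis were followed in the liver. They were chosen by symbol, as the receptor Ghr, the hormone Igf1, the carrier proteins Igfals, Igfbp1, Igfbp2 and Igfbp3, the feedback inhibitors Socs2, Socs3 and Cish, and the repressor Bcl6, and they are 10 of the 17337 genes in the count tables. The left lobe of the liver was taken from Wistar rats after an overnight fast, and its mRNA was counted by RNA-Seq. The libraries of experiment A came from 25 Hsd:WI males of 9 to 10 weeks that were given water vehicle or acetamide at 1000, 300, 100 or 30 mkd (mg per kg body weight and day) for 7 days and were sampled on day 8. Those of experiment B came from 60 Crl:WI males and 60 Crl:WI females of 8 to 10 weeks that received water vehicle or 300, 500, 750, 1000 or 1500 mkd for 7 or 28 days and were sampled on day 8 or day 29. Each of the 29 groups held 5 sequenced rats, and a replicate is a separate rat. Replicates are numbered in order within a group, which in experiment A is not always the number in the label. One label of the vehicle males sampled on day 29 points to experiment A, whereas their title and strain place them in experiment B, where they were kept.

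Growth hormone from the pituitary binds its receptor, encoded by Ghr, on the hepatocyte and activates the kinase JAK2, which phosphorylates the transcription factor STAT5B. STAT5B then induces Igf1, Igfals, Socs2 and Cish. Most circulating IGF1 comes from the liver and travels in a complex of IGF1, IGFBP3 and the acid-labile subunit encoded by Igfals. In male rats growth hormone is released in pulses with long gaps between them, whereas in females its release is more continuous, and this difference drives much of the sex difference in liver gene expression.

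Cish is a textbook STAT5 target, and its promoter is shown because, of the genes with an entry, it alone held the motif marked below. The sequence is the 250 bases before the RefSeq start of Cish, on the plus strand of GRCr8 at chr8:116850719-116850968, and the capitals mark the letters TTCNNNGAA, the core bound by STAT5 dimers, which read alike on both strands.

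Cish: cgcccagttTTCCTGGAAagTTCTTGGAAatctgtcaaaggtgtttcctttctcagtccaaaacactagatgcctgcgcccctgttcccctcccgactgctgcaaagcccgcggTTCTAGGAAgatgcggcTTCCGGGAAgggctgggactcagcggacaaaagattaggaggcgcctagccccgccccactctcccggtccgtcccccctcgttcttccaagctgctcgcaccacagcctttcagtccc

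The motif stood at 4 places in this window, beginning 241, 230, 136 and 119 bases before the start. Of 33469 rat promoters of the same length, 7.67% held the motif at least once and 2 held it 4 times. The window of each of the other 8 genes with an entry held 0 copies. The Cish window was picked for its copies, so the shares beside it are no test. A match describes letters only and was not tested as a binding site.

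All 10 genes passed the filter on low counts in each of the 5 data sets. Levels are given as CPM, the reads of a gene relative to all reads on genes in that rat, scaled by TMM, and are compared between rats and groups, not between genes. A gene was called at a false discovery rate (FDR) of at most 0.05 and a fold change of at least 1.5 in the quasi-likelihood test of edgeR. Because whole liver was measured, fewer cells of a type and less RNA per cell cannot be told apart.

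At the highest dose the receptor, the hormone and the acid-labile subunit were the genes that fell in at least 1 data set. At 1000 mkd in experiment A, 3 of the 10 genes were called, all lower, where 21.4% of all genes tested were called and 7.45% were called lower. Among males day 29 at 1500 mkd, Ghr alone was called, and lower (4.91% of all genes, 1.76% lower), and among females day 29 at 1500 mkd Ghr fell and Igfbp3 rose (13.1% of all genes). At 1500 mkd none of the 10 was called by edgeR in males day 8 (0.177% of all genes) or in females day 8 (0.705% of all genes). There 3 genes in males (Ghr, Igf1 and Igfbp3) and 2 in females (Ghr and Igf1) had an unadjusted p under 0.05, and DESeq2 called 0 in either.

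**Figure D1:**
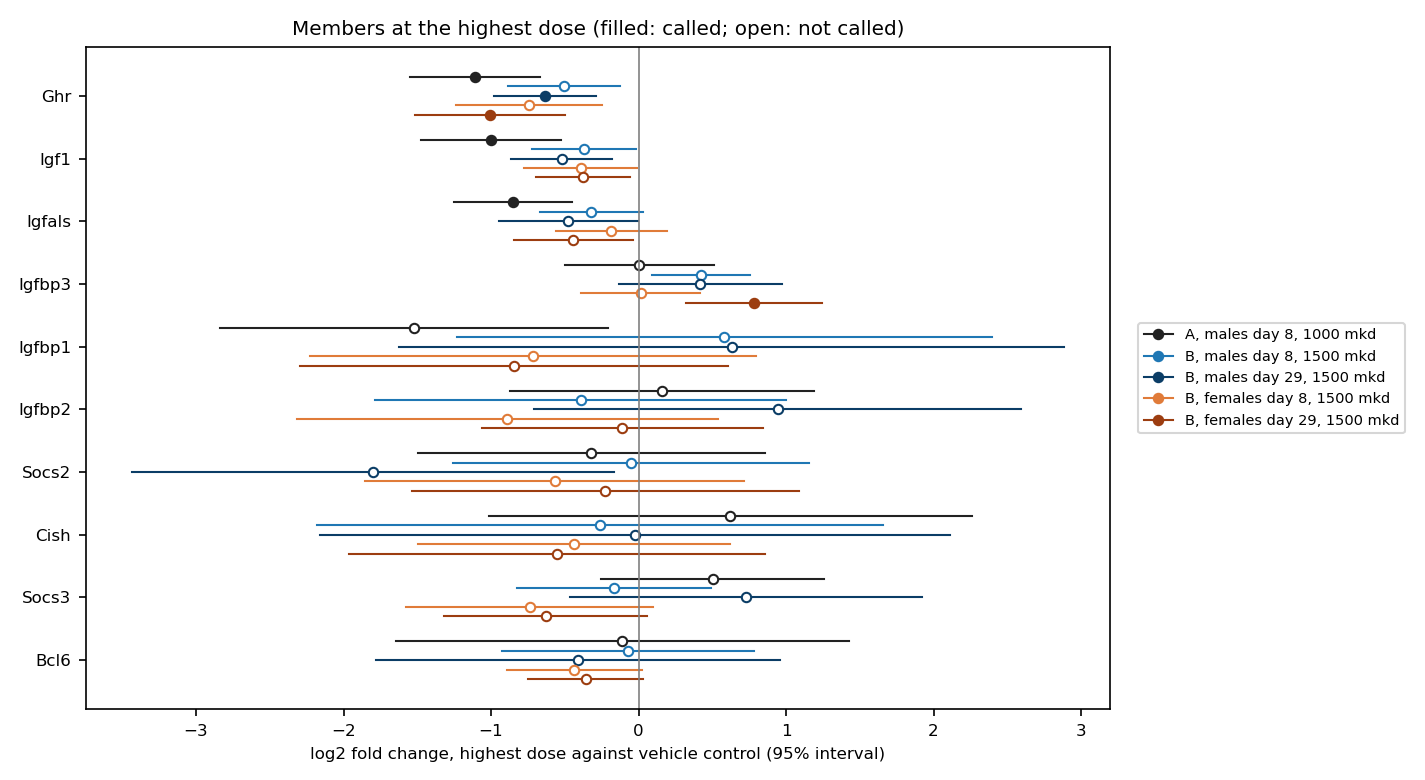
Log2 fold change of each gene at the highest dose against vehicle control (horizontal axis, with 95% interval) in the 5 data sets, 5 rats per group, filled where the gene was called. Ghr sits below 0 in all 5 data sets, between -1.11 and -0.50, while the intervals of Igfbp1, Igfbp2, Socs2 and Cish are wider than those of Ghr.

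Ghr encodes the growth hormone receptor. In the control males of experiment A the 5 rats had 487, 556, 502, 566 and 579 CPM (mean 538 ± 41.1, SD, n = 5). At 1000 mkd they had 317, 130, 376, 213 and 217 CPM (mean 251 ± 96.6, SD, n = 5). The groups did not overlap, and Ghr fell by 1.11 ± 0.21 (SE) on the log2 scale (edgeR FDR 0.000758).

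In males day 29 of experiment B, Ghr was at 584, 550, 568, 658 and 433 CPM in the controls and at 318, 411, 276, 442 and 328 CPM at 1500 mkd. Of the treated rats 4 lay below the lowest control, and the fall was 0.63 ± 0.17 on the log2 scale (FDR 0.0249). This call rested on single rats, since the FDR was 0.0547 without control replicate 2 and 0.0609 without replicate 1 of the 1500 mkd group. At 1000 mkd, where 2.76% of all genes were called, Ghr differed from the controls by -0.57 on the log2 scale with an FDR of 0.0476, but the fold was under 1.5 and it was not called.

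Females day 29 had a Ghr of 623, 574, 385, 978 and 1020 CPM in the controls and of 367, 206, 326, 463 and 412 CPM at 1500 mkd. The controls spread more widely here than in the males, with replicates 4 and 5 highest, and 3 of the 5 treated rats lay below every control. Ghr fell by 1.01 ± 0.25 on the log2 scale (FDR 0.00562).

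On day 8 of experiment B the difference in Ghr at 1500 mkd had the same sign but did not pass. Male controls held 541, 429, 533, 488 and 716 CPM and males at 1500 mkd 381, 287, 364, 378 and 501 CPM (log2 difference -0.50 ± 0.18, FDR 0.226). Female controls held 726, 502, 730, 683 and 771 CPM and females at 1500 mkd 509, 277, 358, 414 and 487 CPM (log2 difference -0.74 ± 0.24, FDR 0.113). In either sex 4 of the 5 treated rats lay below the lowest control.

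The mean control level of Ghr was 716 CPM for the females on day 29 and 682 on day 8, 559 for the males of experiment B on day 29 and 542 on day 8, and 538 for the males of experiment A. Within experiment B the controls were not called as different between the days of 1 sex (log2 day 29 minus day 8 0.05 in males, 0.06 in females) or between the sexes on 1 day (log2 female minus male 0.34 on each day). Females day 8 were not set against males day 29, nor the controls of experiment A against those of B.

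Igf1 encodes insulin-like growth factor 1, the hormone through which growth hormone drives much of body growth. In experiment A its controls held 503, 460, 430, 657 and 671 CPM (mean 544 ± 112, SD, n = 5), and the rats at 1000 mkd held 320, 142, 434, 249 and 220 CPM (mean 273 ± 110, SD, n = 5). All treated rats except replicate 3 lay below the controls, and Igf1 fell by 1.00 ± 0.23 on the log2 scale (FDR 0.00276).

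The Igf1 controls of males day 29 held 719, 680, 828, 729 and 747 CPM and the rats at 1500 mkd 532, 623, 330, 558 and 496 CPM. These groups did not overlap either, yet the difference of -0.52 ± 0.17 missed the threshold (FDR 0.0544). It was called without replicate 2 of the 1500 mkd group (FDR 0.0458). In the other data sets Igf1 at 1500 mkd differed by -0.37 to -0.39 on the log2 scale, with an FDR of 0.358 for the males of day 8, 0.325 for the females of day 8 and 0.0913 for those of day 29.

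Igfals encodes the acid-labile subunit, which is made almost entirely in the liver. Its control males in experiment A held 588, 353, 384, 373 and 385 CPM (mean 417 ± 96.4, SD, n = 5), against 270, 182, 259, 244 and 205 CPM at 1000 mkd (mean 232 ± 37.4, SD, n = 5). The groups did not overlap, control replicate 1 stood above the rest, and Igfals fell by 0.85 ± 0.19 on the log2 scale (FDR 0.00243). In experiment B its log2 difference at 1500 mkd lay between -0.48 in males day 29 (FDR 0.179) and -0.18 in females day 8 (FDR 0.706), and it was called in none of the 4 data sets.

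Igfbp3 encodes the main carrier of IGF1 in plasma, which in the liver is made outside the hepatocyte, by endothelial and Kupffer cells. In females day 29 its 5 controls lay close together at 57.7, 61.9, 58.8, 55.4 and 71.1 CPM (mean 61.0 ± 6.14, SD, n = 5). At 1500 mkd the rats held 130, 129, 67.6, 90.2 and 107 CPM (mean 105 ± 26.5, SD, n = 5), and 4 of the 5 lay above every control. Igfbp3 rose by 0.78 ± 0.22 on the log2 scale (FDR 0.0149), a call that was lost without replicate 2 of the 1500 mkd group (0.70, FDR 0.0564).

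At 1000 mkd the females day 29 held 127, 126, 92.8, 152 and 85.5 CPM of Igfbp3. All 5 lay above the controls, and Igfbp3 was the 1 gene of the 10 called at this dose (0.94 ± 0.22 on the log2 scale, FDR 0.0304), where 1.59% of all genes were called. At 500 mkd the mean was 125 ± 38.8 CPM (SD, n = 5) and the log2 difference 1.05 ± 0.23, which did not pass (FDR 0.0697). Endothelial and macrophage markers also moved in females day 29: of the endothelial markers 2 of 6 rose at 1500 mkd and of the macrophage markers 4 of 7, or 1 and 2 without replicate 2. Of all genes 13.1% were called there in either direction, or 6.99% without replicate 2. In these females the 6 stellate cell markers summed to 69.1 to 136 CPM in the controls and to 118 to 205 CPM at 1500 mkd. At 500 mkd they summed to 147 to 209 CPM. The part of these cell types in the result was not tested.

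The other data sets gave no call for Igfbp3. At the highest dose its log2 difference was 0.42 in males day 8 (FDR 0.248) and 0.42 in males day 29 (FDR 0.314), but 0.01 in females day 8 and 0.00 in experiment A. In experiment A the summed endothelial markers ranged from 75.1 to 169 CPM in the controls and from 135 to 253 CPM at 1000 mkd. The summed macrophage markers there ranged from 442 to 1332 CPM and from 1089 to 2008 CPM.

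**Figure D2:**
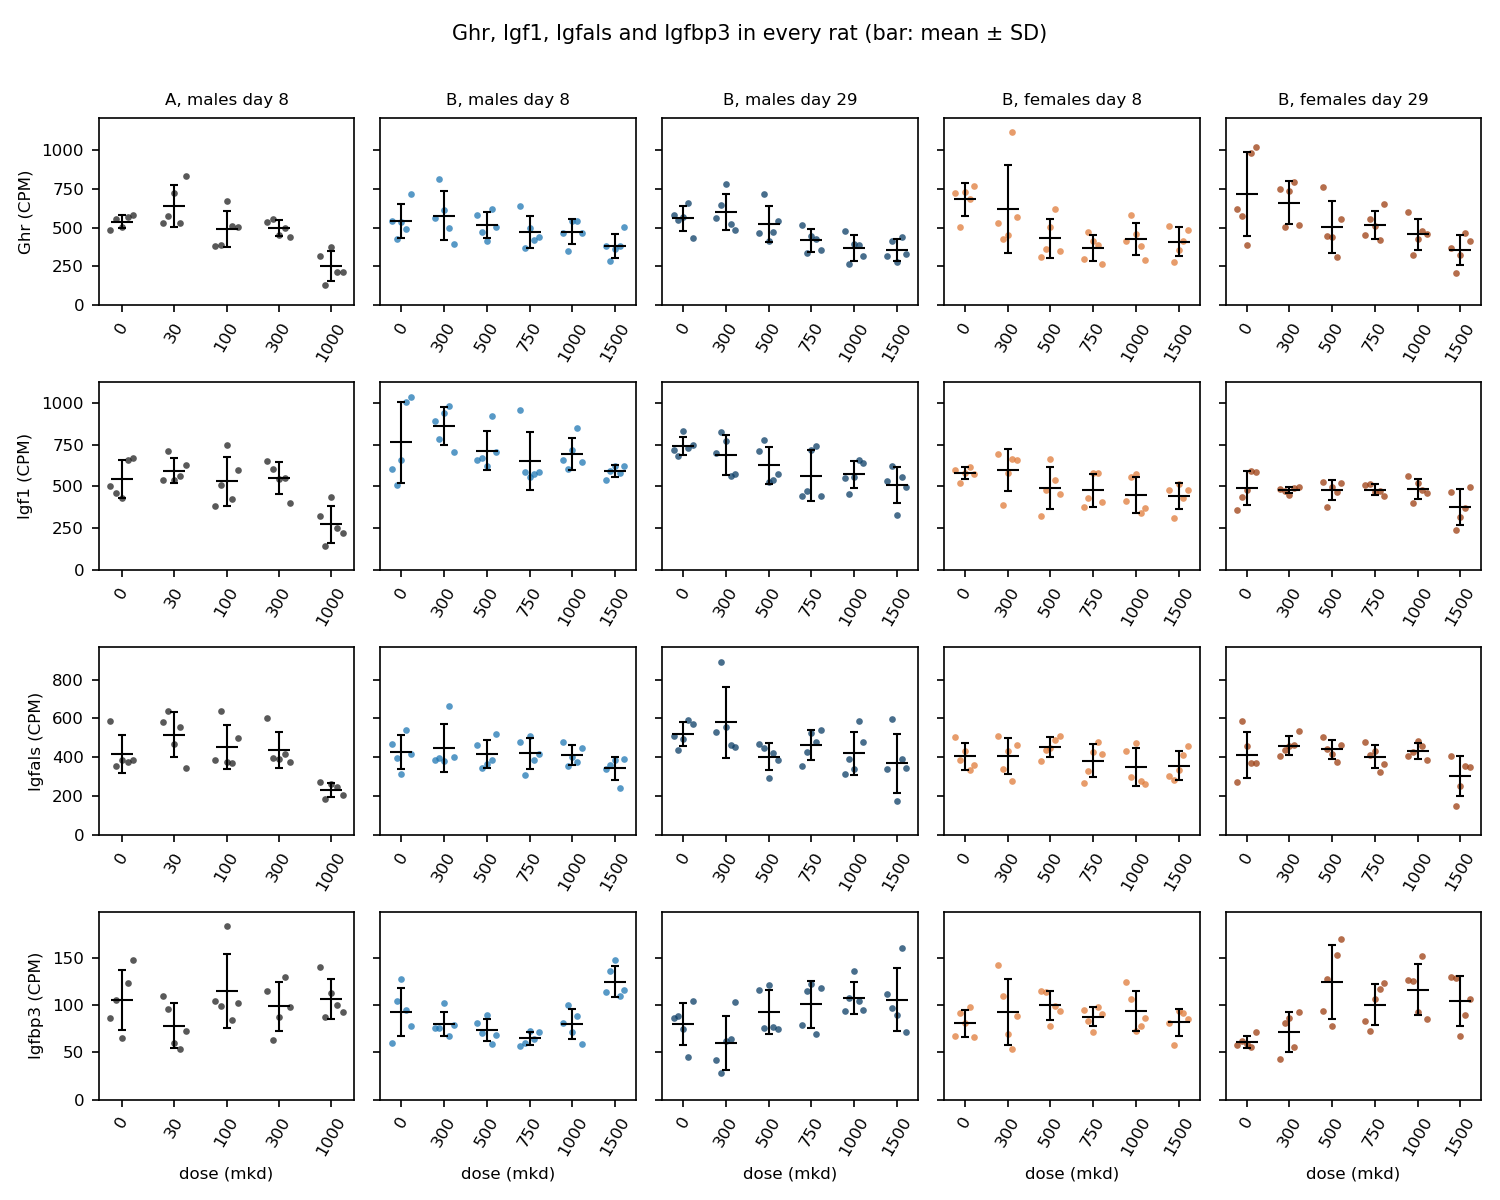
CPM of Ghr, Igf1, Igfals and Igfbp3 (vertical axes, CPM) against dose (mkd) in the 5 data sets, 1 point per rat, with the mean and SD of the 5 rats of a group. Ghr goes from a mean of 538 to 251 CPM between control and 1000 mkd in experiment A, and Igfbp3 of females day 29 from 61.0 to 105 CPM between control and 1500 mkd.

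The lower doses of experiment A gave no call for these genes or for any other gene (0% of all genes at 30, 100 and 300 mkd, edgeR). Unadjusted p fell under 0.05 for 4 of the 10 genes at 30 mkd (Cish, Igfbp1, Igfbp2 and Socs2), for 2 at 100 mkd and for 1 at 300 mkd. DESeq2 was not run for the lower doses of either experiment against their controls. In experiment B no other dose below 1500 mkd gave a call among the 10 genes, of which 0 to 3 had an unadjusted p under 0.05 at such a dose. The share of all genes called there was 0% at 300 to 1000 mkd in males day 8, and in males day 29 it was 0% at 300 and 500 mkd and 0.78% at 750 mkd. It was 0.0087% at 300 mkd, 0.0174% at 500 and 750 mkd and 1.37% at 1000 mkd in females day 8, and 0% at 300 mkd, 0.0349% at 500 mkd and 0.183% at 750 mkd in females day 29.

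A slope against dose over all rats of a data set tests all groups at once, and here a gene was called at an FDR of at most 0.05 with no fold threshold. In experiment A, Ghr fell by 1.21, Igf1 by 1.07 and Igfals by 1.03 on the log2 scale per 1000 mkd (FDR 2.16e-05, 0.000192 and 5.98e-05), where 45.9% of all genes had a slope. In males day 29 Ghr fell by 0.54 (FDR 0.000797) and Igf1 by 0.34 (FDR 0.0108) per 1000 mkd, against 24.5% of all genes. There the slope of Igfals was -0.35 and missed the threshold (FDR 0.0588), which it passed under 4 of 5 alternatives (FDR 0.0374 to 0.0475). Leaving out 1 rat at a time was also tried, and over all 15 settings the slope missed the threshold in 8 (FDR up to 0.104).

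The slope in females day 29 was -0.67 for Ghr (FDR 0.000717), 0.50 for Igfbp3 (FDR 0.03) and -0.34 for Bcl6 (FDR 0.0465), against 27.3% of all genes. Leaving out 1 rat of the control or 1500 mkd group at a time, the slope of Ghr stayed called in all 10 cases, that of Igfbp3 in 4 (FDR up to 0.0669) and that of Bcl6 in 5 (FDR up to 0.16). Of 5 alternatives with all rats Bcl6 lost its slope under 4, with an FDR of 0.0537 without the filter, 0.0602 with at least 10 counts, 0.0616 with the replicate block and 0.442 with dose on a log scale. In females day 8 the slope of Ghr was -0.52 (FDR 0.0364, 5.44% of all genes), and it stayed called in 3 of 10 such cases (FDR up to 0.0921). In males day 8 none of the 10 was called (2.52% of all genes), and 4 had an unadjusted p under 0.05. The slope of Ghr there was -0.37 (FDR 0.0588).

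Both experiments had males at 1000 mkd on day 8, so the effect of this dose could be compared between them. Ghr fell more in experiment A than it changed in experiment B, by 0.92 ± 0.29 on the log2 scale (FDR 0.0399), and Igfals by 0.81 ± 0.26 (FDR 0.0453), where 6.9% of all genes were called. In experiment B the males at 1000 mkd held 462, 346, 543, 545 and 467 CPM of Ghr, and 4 of the 5 rats of experiment A at this dose lay below all of them. For Igf1 the difference of -0.88 ± 0.29 did not pass (FDR 0.0533). The experiments used different strain stocks, and stock and experiment cannot be told apart. The calls were weak: leaving out 1 of the 20 rats at a time, Ghr stayed called in 6 cases (log2 -1.12 to -0.74, FDR up to 0.116) and Igfals in 7 (FDR up to 0.131), and Igf1 was called in 5.

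Markers of several liver cell types also differed at the highest dose. At 1000 mkd in experiment A 21.4% of all genes were called in either direction and 7.45% lower (14.6% in either direction without replicate 2). In experiment A the summed CPM of 6 hepatocyte markers ranged from 256295 to 344065 in the controls and from 77778 to 250768 at 1000 mkd, and 2 of the 6 fell (Ttr by 0.98, Alb by 0.91 on the log2 scale). The summed 7 macrophage markers ranged from 442 to 1332 CPM in the controls and from 1089 to 2008 CPM at 1000 mkd, and 5 of them rose. All 5 T cell markers rose, from summed levels of 2.48 to 3.69 CPM to levels of 3.64 to 12.4 CPM. Without replicate 2 of the 1000 mkd group 3 of the 5 T cell markers rose, and the counts of the hepatocyte and macrophage markers were the same. No marker stood at 0 in all rats of a group. The part of these differences in the lower Ghr, Igf1 and Igfals was not tested.

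The hepatocyte markers of females day 29 summed to 177344 to 353719 CPM in the controls and to 81162 to 172303 CPM at 1500 mkd, where Alb fell by 0.98 and Apoa1 rose by 0.92 on the log2 scale. The part of the hepatocyte markers in the result was not tested. In males day 29 no hepatocyte, macrophage or T cell marker was called at 1500 mkd by edgeR, and the hepatocyte sums ranged from 188279 to 246812 CPM in the controls and from 102324 to 209820 CPM at 1500 mkd.

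There were 3 libraries with a TMM factor above 1.4, each in a highest dose group: replicate 2 at 1000 mkd in experiment A (1.74), replicate 3 at 1500 mkd in males day 29 (1.44) and replicate 2 at 1500 mkd in females day 29 (1.5). Each was the lowest of its 5 rats for Ghr, Igf1 and Igfals. Without them Ghr remained called, with a log2 difference of -0.94 in experiment A (FDR 0.00156), -0.62 in males day 29 (FDR 0.0272) and -0.86 in females day 29 (FDR 0.0271). In experiment A Igf1 (-0.83, FDR 0.00794) and Igfals (-0.77, FDR 0.0105) remained called too. In females day 29 the call of Igfbp3 was lost (0.70, FDR 0.0564), and the differences of Igf1 and Igfals, not called in either case, went from -0.38 to -0.25 and from -0.44 to -0.26.

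Igfbp1 and Igfbp2 encode carriers that respond to insulin and fasting, and Igfbp1 is among the quickest of liver genes to rise when insulin falls. In the controls of experiment A, Igfbp1 was at 21.1, 41.6, 68.2, 651 and 177 CPM, and at 1000 mkd at 126, 36.1, 93.1, 38.8 and 40.3 CPM. Control replicate 4 stood highest and the groups overlapped fully (log2 difference -1.52 ± 0.64, FDR 0.0715). In experiment B the log2 difference of Igfbp1 at 1500 mkd was 0.58 and 0.63 in males day 8 and day 29 and -0.72 and -0.85 in females, with no call.

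Igfbp2 was higher in control females than in control males on day 29. Control males day 29 held 3.57, 1.32, 7.30, 0.355 and 7.09 CPM and control females day 29 held 103, 39.7, 32.3, 40.9 and 69.1 CPM. Every female lay above every male, and the log2 difference, female minus male, was 3.84 ± 0.77 (FDR 8.26e-05). On day 8 the males held 36.9, 15.6, 7.52, 1.12 and 1.29 CPM and the females 27.3, 50.5, 71.2, 31.0 and 69.4 CPM, and with male replicate 1 inside the range of the females the difference of 1.99 ± 0.71 missed the threshold (FDR 0.0516). With dose Igfbp2 gave no call, its log2 difference at the highest dose lying between -0.89 and 0.94.

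Of the feedback inhibitors, Cish and Socs2 spread widely between rats of 1 dose group. The proteins encoded by Cish, Socs2 and Socs3 limit the signal of the activated receptor. In males day 29 the controls held 2.35, 2.33, 83.4, 4.61 and 25.2 CPM of Cish and the rats at 1500 mkd 20.5, 71.7, 8.34, 5.89 and 8.46 CPM. Both groups ran from single rats of high Cish to rats at a small share of that level, and the log2 difference was -0.02 ± 1.04 (FDR 0.991).

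Over all 30 males day 29 Cish ranged from 1.53 to 125 CPM, with a median of 20.0 CPM. After the mean of each dose group was removed, the SD of log2 Cish over rats was 1.93 in males day 29, 1.81 in males day 8, 1.52 in experiment A, 1.20 for the females on day 29 and 0.86 on day 8. Of the genes with a mean of at least 1 CPM, 97.7 to 99.8% had a smaller SD in these data sets, and the median gene had an SD of 0.267 to 0.293. Whether the spread differed between males and females was not tested. Igfbp1 (SD 1.06 to 1.94), Igfbp2 (0.82 to 1.41) and Socs2 (0.98 to 1.36) also spread widely, whereas the SD was 0.28 to 0.41 for Ghr and 0.25 to 0.37 for Igf1. These SD lay above those of 52.1 to 77.3% of genes for Ghr and of 40.8 to 69.2% for Igf1.

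Socs2 in males day 29 was at 22.4, 6.82, 146, 26.9 and 61.3 CPM in the controls and at 8.27, 28.4, 5.17, 21.5 and 11.6 CPM at 1500 mkd. The difference of -1.80 ± 0.80 on the log2 scale did not pass (FDR 0.148), and in the other data sets it lay between -0.57 and -0.05. Cish, Socs2 and Socs3 were called at no dose in any data set.

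**Figure D3:**
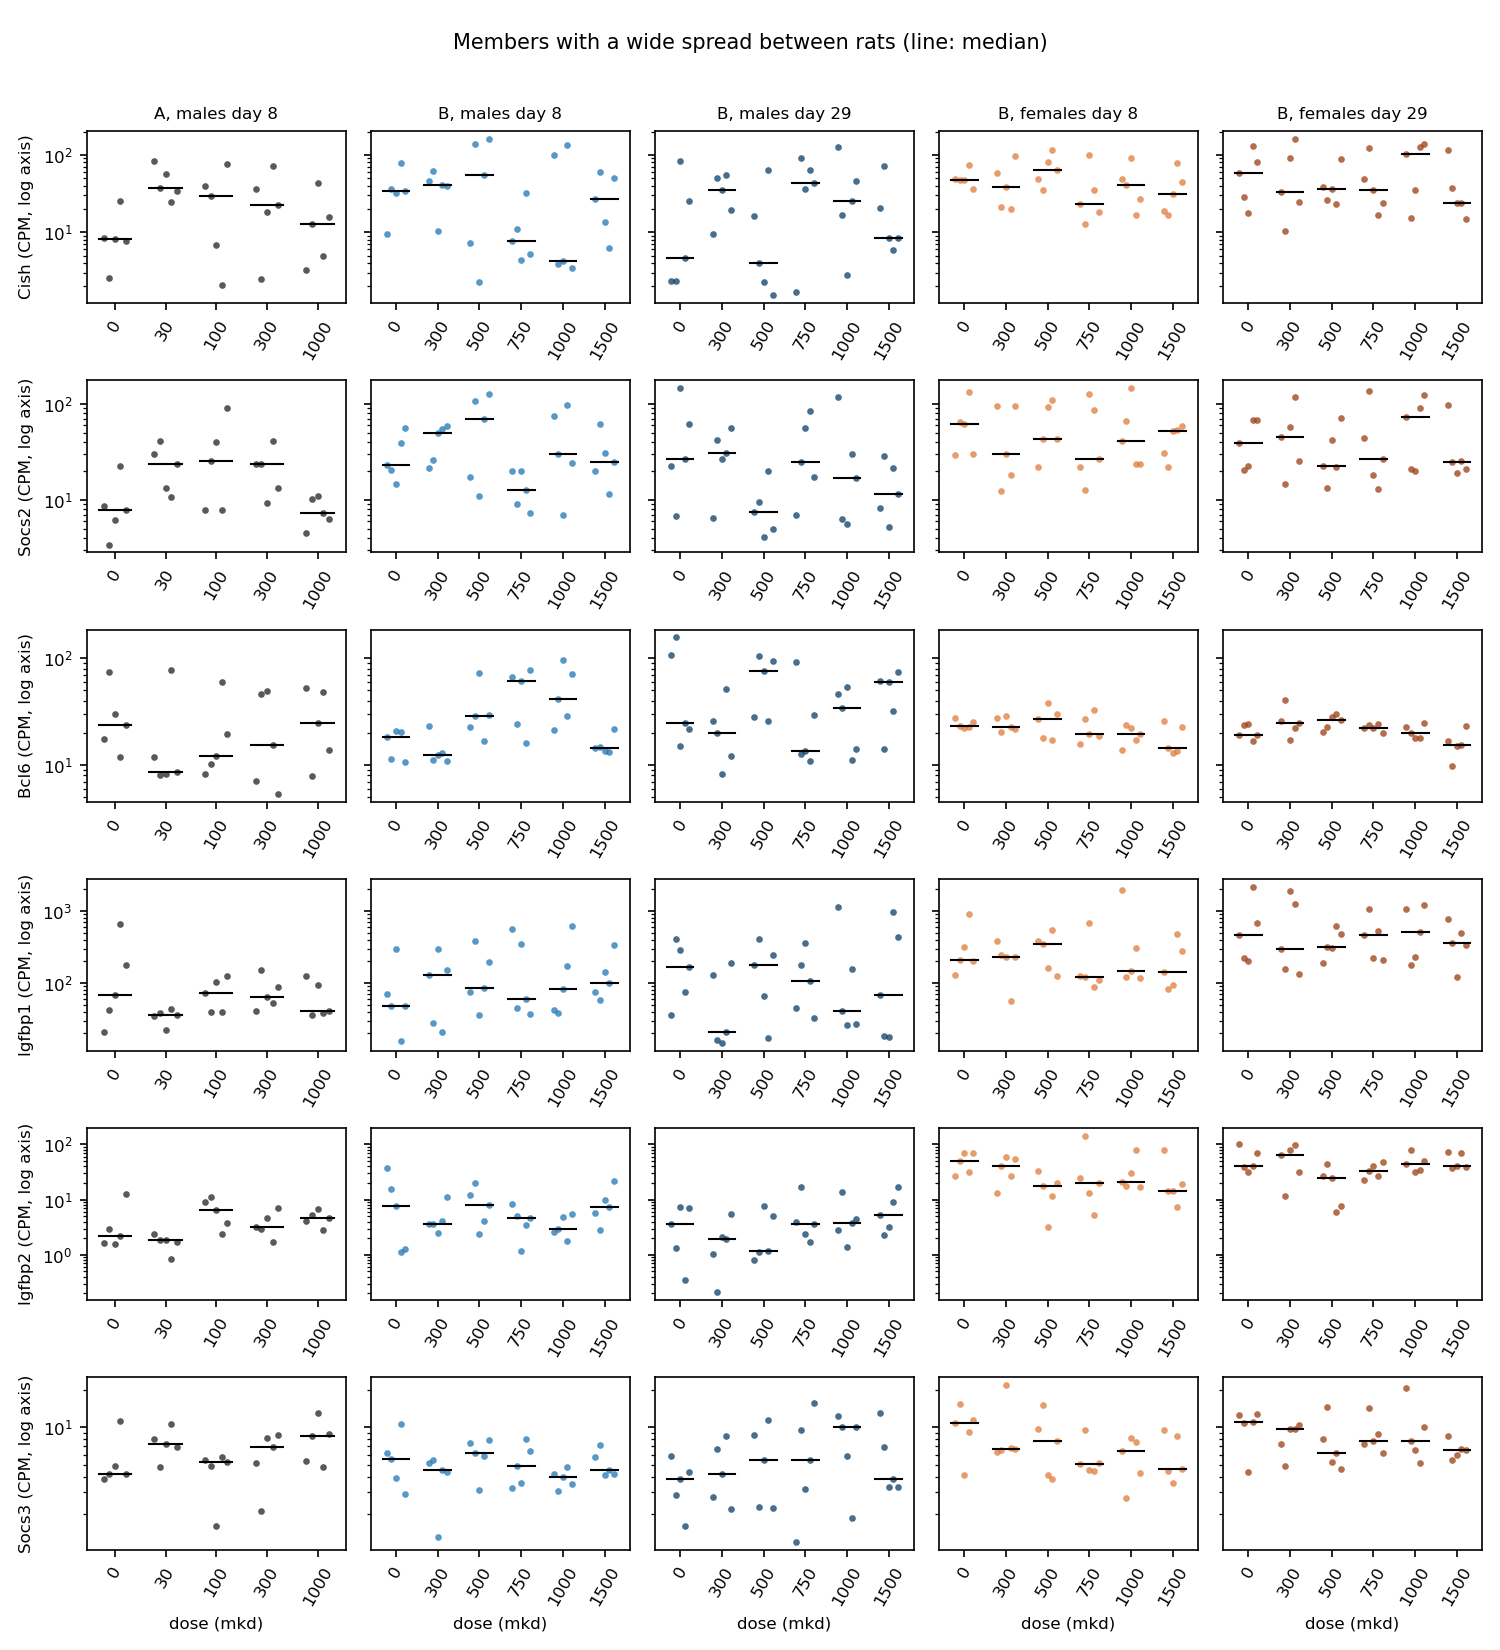
CPM on a log axis against dose (mkd) for Cish, Socs2, Bcl6, Igfbp1, Igfbp2 and Socs3 in the 5 data sets, 1 point per rat, the line marking the median of 5 rats. Cish of males day 29 runs from 1.53 to 125 CPM with rats of low and high level at most doses, and the median of Igfbp2 in the controls lies higher in females than in males, with rats of both sexes overlapping at several doses.

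Bcl6 encodes a transcriptional repressor that growth hormone lowers in the male liver and that competes with STAT5 for its sites. On day 29 the control males held 108, 157, 15.0, 24.6 and 21.9 CPM and the control females 19.2, 23.9, 24.3, 16.7 and 19.0 CPM. Male replicates 1 and 2 stood far above the other rats, whereas the remaining males lay from just below the lowest to just above the highest female, and the log2 difference, female minus male, was -1.68 ± 0.45 (FDR 0.00421). The call was lost without male replicate 2 (-1.03, FDR 0.111). On day 8 the difference was 0.57 and did not pass (FDR 0.486).

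Within dose groups the SD of log2 Bcl6 was 0.70 to 1.25 in the 3 data sets of males and 0.31 to 0.37 in both data sets of females. Whether this differed between the sexes was not tested.

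Of the 10 genes 4 were called between control females and control males on day 29, where 12.1% of all genes were called. Besides Igfbp2 and Bcl6 these were Igf1, lower in females by 0.61 ± 0.18 on the log2 scale (FDR 0.00795), and Socs3, higher in females by 1.46 ± 0.45 (FDR 0.0141). Socs3 was at 5.88, 2.87, 3.84, 1.60 and 4.33 CPM in the males and at 12.6, 10.9, 4.32, 11.1 and 12.7 CPM in the females, of which replicate 3 alone lay among the males. Without male replicate 4 the call for Socs3 was lost (FDR 0.0596). Igf1 went below the fold threshold without male replicate 3 or 5 or female replicate 2 or 3, and its FDR was 0.0548 without female replicate 1.

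On day 8 none of the 10 was called by edgeR between the sexes (8% of all genes), 3 had an unadjusted p under 0.05 (Igf1, Igfbp1 and Igfbp2) and DESeq2 called 1, Igfbp2. The effect of 1500 mkd did not pass the test of a difference between the sexes for any of the 10, on day 8 (0% of all genes, 0 with an unadjusted p under 0.05) or on day 29 (0.441% of all genes, 1 with an unadjusted p under 0.05, Socs3). For Ghr the difference in effect, female minus male, was -0.34 on day 29, with a 95% interval of -0.95 to 0.28.

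Day 29 was set against day 8 within each sex, where day, age and length of dosing cannot be told apart. Among control males none of the 10 was called by edgeR or by DESeq2 (0.00872% of all genes), and 2 had an unadjusted p under 0.05. These were Bcl6 (log2 day 29 minus day 8 2.01 ± 0.60, FDR 0.293) and Igfbp2 (-1.67 ± 0.78, FDR 0.453). The Bcl6 of control males was at 18.5, 11.3, 20.7, 20.2 and 10.6 CPM on day 8, against the 15.0 to 157 CPM of day 29 above. Among control females none was called by either tool (0.952% of all genes), and 0 had an unadjusted p under 0.05.

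The effect of a dose was not called as different between the days for any of the 10 genes at any of the 5 doses in either sex, where at most 0.00872% of all genes were called in males and 0.00858% in females. In males the effect on day 29 lay below that on day 8 for Socs2 at 500 mkd (log2 -3.63, unadjusted edgeR p 0.00102, FDR 0.89). So it did for Bcl6 at 1000 mkd (-2.70, p 0.00191, FDR 0.325) and 750 mkd (-2.65, p 0.00231, FDR 0.489). The mean Bcl6 of males on day 8 was 16.3 CPM in the controls, 49.3 at 750 mkd, 51.9 at 1000 mkd and 15.5 at 1500 mkd. On day 29 it was 65.3, 31.7, 31.9 and 48.4 CPM in the same order, with control replicates 1 and 2 at 108 and 157 CPM. The effect on day 29 lay above that on day 8 for Socs3 and Igfbp2 at 1000 mkd and Igfbp3 at 750 mkd, each with an unadjusted p under 0.05. For Igfbp3 of females at 1500 mkd the effect on day 29 exceeded that on day 8 by 0.77 on the log2 scale, with a 95% interval of 0.16 to 1.37 and an unadjusted p of 0.0145 (edgeR FDR 0.597). For Ghr the difference in effect at 1500 mkd, day 29 minus day 8, was -0.16 in males (95% interval -0.67 to 0.35) and -0.27 in females (-0.97 to 0.43).

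Some pairs of these genes also varied together from rat to rat. Relations were computed for 8 pairs in each of the 5 data sets, 40 in all, on log2 CPM after the mean of each dose group was removed, with a permutation test of rats within dose groups adjusted over the 40. Of these, 25 passed by Pearson r and 21 by Spearman rho. With 1 rat fewer per dose group only 12 to 17 passed. The share of other pairs of liver genes that would pass was not tested. These counts therefore do not show that such relations are particular to the axis.

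Cish and Socs2 rose and fell together across rats in 4 of 5 data sets. The r was 0.92 for females on day 29 (rho 0.92) and 0.86 on day 8 (rho 0.89), 0.77 in males day 29 (rho 0.74) and 0.71 in males day 8 (rho 0.63), with adjusted permutation p of 0.0001, 0.0001, 0.0001 and 0.0074. In experiment A r was 0.50 (rho 0.48) and did not pass (adjusted permutation p 0.0635). Without the 2 rats farthest from the median of Cish, r was 0.51 to 0.90 over the 5 data sets.

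Cish and Bcl6 ran in opposite directions in the 3 data sets of males. The r was -0.59 in experiment A (rho -0.51), -0.52 in males day 8 (rho -0.39) and -0.67 in males day 29 (rho -0.64), with adjusted permutation p of 0.00963, 0.0401 and 0.0032. By rho it did not pass in males day 8 (adjusted p 0.112). In females r was -0.02 on day 8 (rho 0.04) and -0.38 on day 29 (rho -0.31), with adjusted permutation p of 0.936 and 0.104. Without the 2 farthest rats r was -0.45, -0.39 and -0.58 in the males, in the same order. The difference between males and females was not tested.

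**Figure D4:**
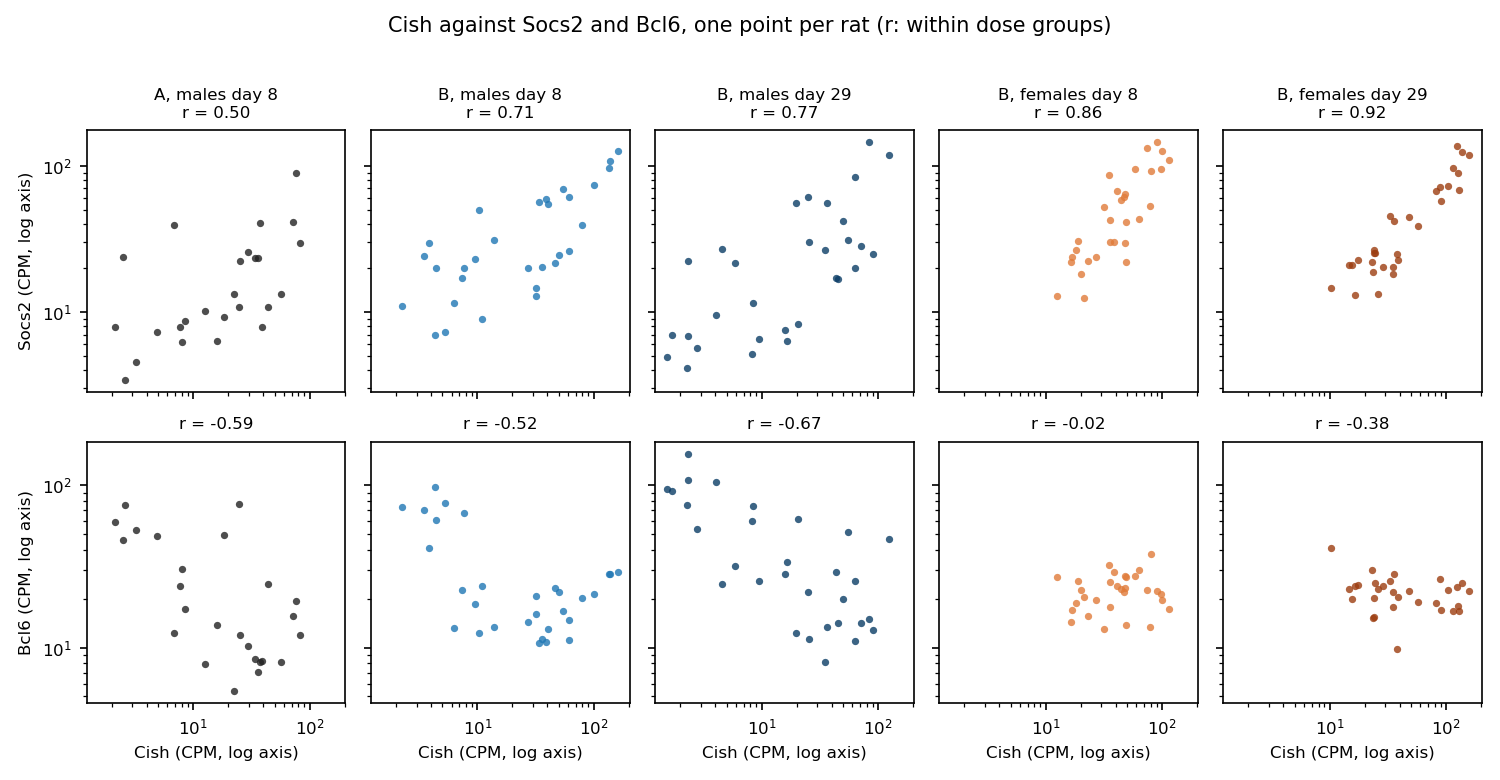
Socs2 (upper panels) and Bcl6 (lower panels) against Cish in each rat of the 5 data sets, CPM on log axes, with the r found within dose groups. Socs2 rises with Cish up to r = 0.92 in females day 29, and Bcl6 is high in males of low Cish (r = -0.67 in males day 29).

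Igf1 followed Ghr in all 5 data sets, with r of 0.80 in experiment A and of 0.53 to 0.65 in experiment B, each passing by r and by rho. Without the 2 farthest rats r was 0.38 to 0.62. Igf1 followed Socs2 with r of 0.37 to 0.76, passing in 5 data sets by r and 4 by rho. Cish and Socs3 passed in the 3 data sets of males (r 0.51 to 0.60) and not in females (r -0.21 and 0.39), a difference that was not tested. Igf1 and Igfals passed in 3 data sets by r and 2 by rho, Socs2 and Bcl6 in 2 and 1, and Igfbp1 and Igfbp2 in 0 of 5.

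The genes most like Igf1, Igfbp1, Cish and Bcl6 were found over the rats of all 5 data sets and 10154 genes, as Pearson r of log2 CPM after the mean of each data set was removed, a description in which dose is left in. Igf1 was most like Bdh1 (0.78), a mitochondrial enzyme of ketone body metabolism, Cpamd8 (0.77) and Pzp (0.77). Igfbp1 was most like Ppp1r15a (0.76), which dephosphorylates eIF2α under stress, Pnrc1 (0.75) and Nr4a1 (0.73), an immediate early receptor. Cish was most like Hhex (0.78), a homeobox factor of the liver, Socs2 (0.72) and Net1 (0.72). For Bcl6 the highest r were lower, with Hfe2 (0.46), Cited2 (0.42) and Zfp395 (0.41).

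Beyond the 10 genes, 30 genes of growth hormone and IGF1 signalling were listed, and 26 passed the filter in experiment A. At 1000 mkd 6 rose and 0 fell, a share near the 21.4% of all genes, among them Socs1 (log2 2.00 ± 0.50), an inhibitor of JAK kinases, the IGF1 receptor gene Igf1r (1.04 ± 0.37) and Socs4 (0.77 ± 0.15). The median over the list was 0.00, as over all genes. Without replicate 2 of that group 3 rose and 1 fell (14.6% of all genes), and Igf1r was no longer called (0.95, FDR 0.0923). In females day 29 at 1500 mkd 3 rose and 1 fell, again near the share of all genes (13.1%): Grb10, an adaptor that restrains the insulin and IGF1 receptors, rose by 1.14 ± 0.21, Socs1 by 1.12 ± 0.40 and the phosphatase gene Ptpn1 by 0.84 ± 0.26, while the prolactin receptor gene Prlr fell by 1.29 ± 0.39 on the log2 scale. Of these Grb10 alone was called without replicate 2 (1.13, FDR 0.0023), where 6.99% of all genes were called.

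Among males day 29 the insulin receptor gene Insr fell by 0.88 ± 0.26 and Igfbp7 rose by 0.80 ± 0.22 on the log2 scale. In females day 8 Igfbp4 fell by 0.67 ± 0.15 and Stat3 by 0.60 ± 0.13, and in males day 8 the list gave 0 calls by edgeR.

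The list of liver genes with growth hormone-dependent sex bias held 16 genes, 15 of them past the filter in experiment A. At 1000 mkd 5 of them fell and 0 rose, where 21.4% of all genes were called and 7.45% were called lower. Cyp2c7 was down by 2.10 ± 0.33, the male-specific Cyp2c11 by 1.71 ± 0.46, Cyp2a2 by 1.22 ± 0.32 and Cyp3a2 by 1.22 ± 0.35 on the log2 scale. These 4 remained called without replicate 2 of that group. The median was -0.36, against 0.00 over all genes. In females day 29 2 of 14 fell at 1500 mkd, the female-specific Cyp2c12 by 1.14 ± 0.28 and Cyp2c7 by 1.01 ± 0.28 (median -0.22), a share near the 13.1% of all genes called. Both remained called without replicate 2. The other 3 data sets gave 0 calls at 1500 mkd by edgeR, with medians of -0.31 to -0.21.

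Of 12 genes that respond to insulin and fasting, Trib3 alone was called in experiment A (0.81 ± 0.30), and in females day 29 Ppargc1a rose by 1.10 ± 0.39 and Srebf1 fell by 1.09 ± 0.36. None of these 3 was called by edgeR without replicate 2 of the highest dose group. Of all genes 21.4% were called in experiment A, 7.45% lower, and 13.1% in females day 29. Of 11 acute-phase genes tested 5 fell in experiment A, among them Fgg by 1.08 ± 0.23, Crp by 1.03 ± 0.24, the IL-6 receptor gene Il6r by 0.99 ± 0.29 and Fga by 0.82 ± 0.19. In females day 29 2 fell (Crp by 0.89, Fgg by 0.63). Without replicate 2 these counts were 5 and 0, where 14.6% and 6.99% of all genes were called in either direction.

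Of 8 cell cycle genes 8 rose at 1000 mkd in experiment A and 8 at 1500 mkd in females day 29, against 21.4% and 13.1% of all genes called in either direction, and 7 and 8 rose without replicate 2 of the highest dose group. In females day 8 2 rose (0.705% of all genes) and in males day 8 0 by edgeR (0.177%). The males day 29 had 6 that rose (4.91% of all genes), a count that depended on 1 rat. The summed level of the 8 genes at 1500 mkd there was 54.4, 48.4, 903, 60.2 and 15.8 CPM, with replicate 3, the library with the high TMM factor, far above the rest. By its label this is the rat whose Ki67 labelling in liver sections the paper found to be an outlier and left out of its dose modelling. Without it 2 rose (6.08% of all genes), Ccnb1 went from 3.90 to 1.4 (FDR 0.0335) and Cdk1 from 3.78 to 1.47 (FDR 0.026) on the log2 scale, and Mki67 went from 3.47 to 0.90 and was not called (FDR 0.104).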

How the data were processed

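Poly-A RNA was sequenced as 75 base single reads (TruSeq Stranded). The authors trimmed the leading 7 and trailing 3 bases, rejected reads under 50 bases, aligned to Rn6 with Bowtie2 and counted genes with HTSeq, and deposited raw counts in 5 tables. Whether counting used strand is not given in the sources used here. HTSeq summary lines in the tables of experiment B (35.5 to 67.1% of the counts of a rat) were left out. The genes of 1 rat drew between 15449716 and 39986531 reads (median 28262376), so that counting error is small beside the spread between rats for all but the lowest levels. No per-sample column was left unused (0).

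Genes were kept by filterByExpr, scaled by TMM and tested in edgeR 4.0.16 (R 4.3.3) by the quasi-likelihood test, with all groups of a data set in 1 fit, two-sided, Benjamini-Hochberg adjusted over all genes tested. Interactions were fitted over the data sets joined. Log2 CPM used a prior count of 2. Relations used 100000 permutations in Python 3.11.15 (numpy 2.4.6, scipy 1.17.1). The genes and lists were chosen with earlier results of these data known. Named were all 10 genes, of each list up to 4 called genes per data set by size of change (1 of these is not reported here), and the 3 nearest genes of Igf1, Igfbp1, Cish and Bcl6. Alternatives were DESeq2 size factors, a replicate block, a minimum of 10 counts per rat, no filter, only the groups compared, DESeq2 1.42.0, log dose, a prior count of 0.5 and leaving out each rat. The last, for the comparison of experiments, the relations and the lists (without the 3 libraries of high TMM factor), was chosen after seeing the data. The test was checked on simulated counts. RefSeq promoters (GRCr8) were matched by symbol for 9 of the 10 genes, all but Socs2.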

Additional observations from a re-analysis of the deposited data

Results flagged for a closer look

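Over the 10 genes and 29 groups, 22 of 290 combinations of gene and group held 1 rat far from the other 4. Chance gives about 1 in 20 for a single combination, and the combinations share rats. Of these 6 concerned Socs3, 4 Igfals, 3 Bcl6, 2 each Cish, Igfbp1 and Igfbp3, and 1 each Ghr, Igf1 and Socs2. All values are CPM, with the range of the other 4 rats in brackets.

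In the males of experiment A, Igfals was high in replicate 1 of the controls at 588 (353 to 385) and in replicate 1 of the 300 mkd group at 604 (377 to 415). Igfbp3 was high in replicate 3 at 100 mkd at 184 (84.5 to 104). Socs3 was high in control replicate 4 at 11.2 (3.80 to 4.92) and low in replicate 3 at 100 mkd at 1.62 (4.84 to 5.73). Bcl6 was high in replicate 4 at 30 mkd at 77.1 (8.10 to 12.0).

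In males day 8 of experiment B, replicate 3 at 300 mkd was low for both Cish at 10.2 (39.2 to 61.0) and Socs3 at 1.31 (4.36 to 5.46). In the same group Igfals was high in replicate 4 at 665 (381 to 402) and Bcl6 in replicate 1 at 23.3 (10.9 to 13.0). Igf1 was high in replicate 1 at 750 mkd at 957 (555 to 587). At 1500 mkd Igfals was low in replicate 4 at 241 (340 to 389) and Bcl6 high in replicate 5 at 21.9 (13.1 to 14.7). In males day 29 Cish was low in replicate 1 at 750 mkd at 1.68 (36.5 to 91.6).

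In females day 8 Ghr was low in control replicate 2 at 502 (683 to 771). Igfbp1 was low in replicate 4 at 300 mkd at 56.7 (231 to 385) and high in replicate 3 at 750 mkd at 688 (88.5 to 125). Igfbp3 was low in replicate 2 at 1500 mkd at 57.8 (81.6 to 93.9). Socs3 was high in replicate 3 at 300 mkd at 21.8 (6.27 to 6.85) and in replicate 2 at 750 mkd at 9.45 (4.45 to 5.13). In females day 29 Socs3 was low in control replicate 3 at 4.32 (10.9 to 12.7), and Socs2 was high in replicate 1 at 1500 mkd at 96 (18.9 to 25.2).

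The effect of 1000 mkd on males day 8 differed between the experiments for Ghr (log2 -0.92, FDR 0.0399) and Igfals (-0.81, FDR 0.0453) by the interaction term of edgeR.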

How the results depend on the processing

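Counts of called genes at the highest dose changed under these alternatives: without the filter 2 were called in males day 29 at 1500 mkd (Ghr and Igf1), and with only the 2 groups compared 1 in females day 29 (Igfbp3, as Ghr had FDR 0.0621). The replicate block and DESeq2 each called 1 gene between control females and males on day 8 (Igfbp2). For the comparison of experiments at 1000 mkd, no filter and at least 10 counts each left 1 (Ghr), while Igf1 was called with the replicate block (FDR 0.0445) and by DESeq2 (FDR 0.037), and the slope of Ghr in females day 8 was lost with the replicate block, leaving 0 (FDR 0.0544). In males day 29 the slope of Igfals was called under 4 of 5 alternatives, giving 3 genes for 2, and in females day 29 that of Bcl6 was lost under 4 of 5, leaving 2 of 3. Rats of the same replicate number did not vary together (mean r -0.014 to 0.051). In experiment A this number gives the order within a group and differs from the label number in some groups. Pairing by label number was therefore not tested there, by this check or by the replicate block. Under at least 10 counts Igfbp2 was not tested in fits that held males day 29.

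Leaving out 1 rat at a time, the count of called genes at the highest dose was 3 to 4 in experiment A, 0 to 0 in males day 8, 0 to 2 in males day 29, 0 to 0 in females day 8 and 1 to 2 in females day 29. It was 0 to 0 between days in either sex, 0 to 1 between sexes on day 8, 3 to 4 on day 29 and 0 to 3 between experiments. For slopes it was 3 to 4 in experiment A, 0 to 2 in males day 8, 2 to 3 in males day 29, 0 to 3 in females day 8 and 1 to 4 in females day 29. Of the 40 relations 12 to 17 passed with 1 rat fewer per dose group, against 25 with all rats, 24 with DESeq2 size factors and 22 with a prior count of 0.5. In females day 8 the r changed sign for Cish and Bcl6 without replicate 1 (0.06) or 4 (0.11), with a range of -0.13 to 0.11, and for Igfbp1 and Igfbp2 without replicate 1, with a range of -0.072 to 0.036. The cause of these changes was not tested. The median of all genes in males day 29 at 1500 mkd was 0.07 (log2) with TMM and 0.04 with DESeq2 size factors.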
